A study of Mus musculus with 4 samples.

Results

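The cytosolic ribosomal protein genes encode the proteins that, with ribosomal RNA, form the small and the large subunit of the ribosome. They were taken by symbol: every row whose name begins with Rpl or Rps followed by a digit, with Rplp0, Rplp1 and Rplp2 added, and with S6 kinase genes, pseudogene symbols that contain -ps, and Rps19bp1 left out. This gave 84 of the 23284 rows. For testing, a gene had to reach 1 FPKM in at least 2 of the 4 libraries, and 81 members did. FPKM are fragments per kilobase of transcript, scaled between libraries in a way that the sources used here do not give. Scaling to transcript length lets levels be compared between genes, except where genes share sequence.

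RNA was measured in EGFP+ cells sorted from the bone marrow of wild-type mice 24 h after each had received 100000 LSK cells, that is Lin- Sca1+ c-Kit+ marrow cells rich in stem and progenitor cells. The cells came from CAG-EGFP mice, in which the broadly active CAG promoter drives EGFP. The 5-FU recipients had been given 5-fluorouracil, a pyrimidine analog that kills dividing cells, intravenously at 200 mg/kg 2 days before the transplant. The control recipients were untreated. Each group had 2 libraries, 1 per recipient mouse. Both groups carry the same donor cells, and the labels do not say whether those came from a common pool.

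Each ribosome holds about 1 copy of most of these proteins, and their messages are among the most abundant in growing cells. Many start with a pyrimidine tract that places their translation under the control of the kinase mTOR and the RNA-binding protein LARP1. Unassembled Rpl5 and Rpl11, which travel with the 5S ribosomal RNA, bind MDM2 and so stabilise p53. Loss of 1 copy of several of these genes causes Diamond-Blackfan anemia in people, a failure of red cell production.

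Promoter windows of 8 members are shown because the family's messages differed in the same direction while these genes differed in size. The first 4 had log2 differences above the family median, Rplp2 among the P stalk proteins also lay above it, and the last 3 were among the smallest. Each window runs from 35 bases before to 25 bases from an annotated RefSeq start (GRCm38.p6, 5′ to 3′ on the gene's strand), and capitals mark runs of at least 6 pyrimidines.
Rps27l, chr9:66946051-66946110, plus strand: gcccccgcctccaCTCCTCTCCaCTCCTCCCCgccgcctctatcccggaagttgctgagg
Rpl5, chr5:107900493-107900552, plus strand: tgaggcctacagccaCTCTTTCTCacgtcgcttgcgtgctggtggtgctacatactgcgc
Rps2, chr17:24720028-24720087, plus strand: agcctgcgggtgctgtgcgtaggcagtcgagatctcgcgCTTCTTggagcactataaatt
Rpl41, chr10:128549144-128549203, minus strand: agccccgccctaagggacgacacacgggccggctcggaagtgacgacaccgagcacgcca
Rplp2, chr7:141447616-141447675, plus strand: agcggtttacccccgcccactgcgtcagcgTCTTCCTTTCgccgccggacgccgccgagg
Rps9, chr7:3704006-3704065, plus strand: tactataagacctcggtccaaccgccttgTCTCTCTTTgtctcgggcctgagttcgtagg
Rpl10, chrX:74270781-74270840, plus strand: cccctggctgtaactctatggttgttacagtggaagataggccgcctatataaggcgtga
Rpl22l1, chr3:28805473-28805532, plus strand: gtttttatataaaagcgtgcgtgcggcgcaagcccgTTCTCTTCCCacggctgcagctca
Runs of this kind stood in windows of genes with large differences (Rps27l, Rpl5) and with small ones (Rps9, Rpl22l1), and were missing from those of Rpl41 and Rpl10.

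RefSeq promoter entries matched 63 of the 84 members. A run of at least 8 pyrimidines between 20 bases before and 30 bases from a start was present in 34 of the 63, or 54.0%, against 21.4% of 26962 other genes. A C at the annotated start followed by at least 4 pyrimidines was present in 20.6% of members and 2.97% of other genes. The ETS-family core CCGGAAG, on either strand from 250 bases before to 50 bases from a start, was present in 39.7% of members and 9.86% of other genes. The YY1 core AAGATGGCG was present in 6.35% and 1.63%, the E-box CACGTG bound by MYC in 9.52% and 8.09%, and TATAAA in 11.1% and 15.7%. A gene counted as holding a motif if any of its annotated starts did, motifs may overlap, and a match is not evidence of binding.

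Messages of the family made up 13.2% and 17.3% of all FPKM in 5-FU recipients 1 and 2, and 11.9% and 10.1% in control recipients 1 and 2. The summed level of the 84 members was 89846 and 131817 FPKM in the 5-FU recipients, against 81096 and 68290 FPKM in the control recipients. The groups did not overlap, but the gap between the 5-FU recipients was larger than that between 5-FU recipient 1 and control recipient 1. Among the 100 genes of highest level, 41 and 47 were members in 5-FU recipients 1 and 2, and 33 and 30 in control recipients 1 and 2. In a bulk sample, more cells with many ribosomes and more of these messages per cell cannot be told apart.

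Over the 81 tested members the median log2 difference, 5-FU minus control on the log2(FPKM + 1) scale, was 0.55, and 79 were positive. The median over all 11496 tested genes was -0.01, and 49.2% were positive. The middle members lay between 0.37 and 0.72 (25th and 75th percentiles), and the median standard error of a member was 0.29. In both 5-FU libraries 58 of the 81 lay above both control libraries, as did 31.4% of all tested genes. No member lay below both controls, against 30.7% of all tested genes.

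Few members passed the test singly. By limma with Benjamini-Hochberg adjustment over all tested genes, 3 members rose and none fell at an adjusted p under 0.05, while 8.23% of all tested genes rose and 4.67% fell. A count of 3 in 81 is no larger a share than that of all genes. At an unadjusted p under 0.05, 23 members were higher and 0 lower, where 16.9% of all tested genes were higher and 14.4% lower. With quantile scaling 6 members rose, where 7.16% of all tested genes did. Without 5-FU recipient 1, 71 members rose, where 18.5% of all tested genes did, and without 5-FU recipient 2, 6 members rose, where 9.08% did. Without control recipient 1, 0 members passed, where 0.765% of all tested genes rose, and without control recipient 2, 0 passed, where 0.8% rose. The lone library was then assumed to vary like the other group.

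**Figure D1:**
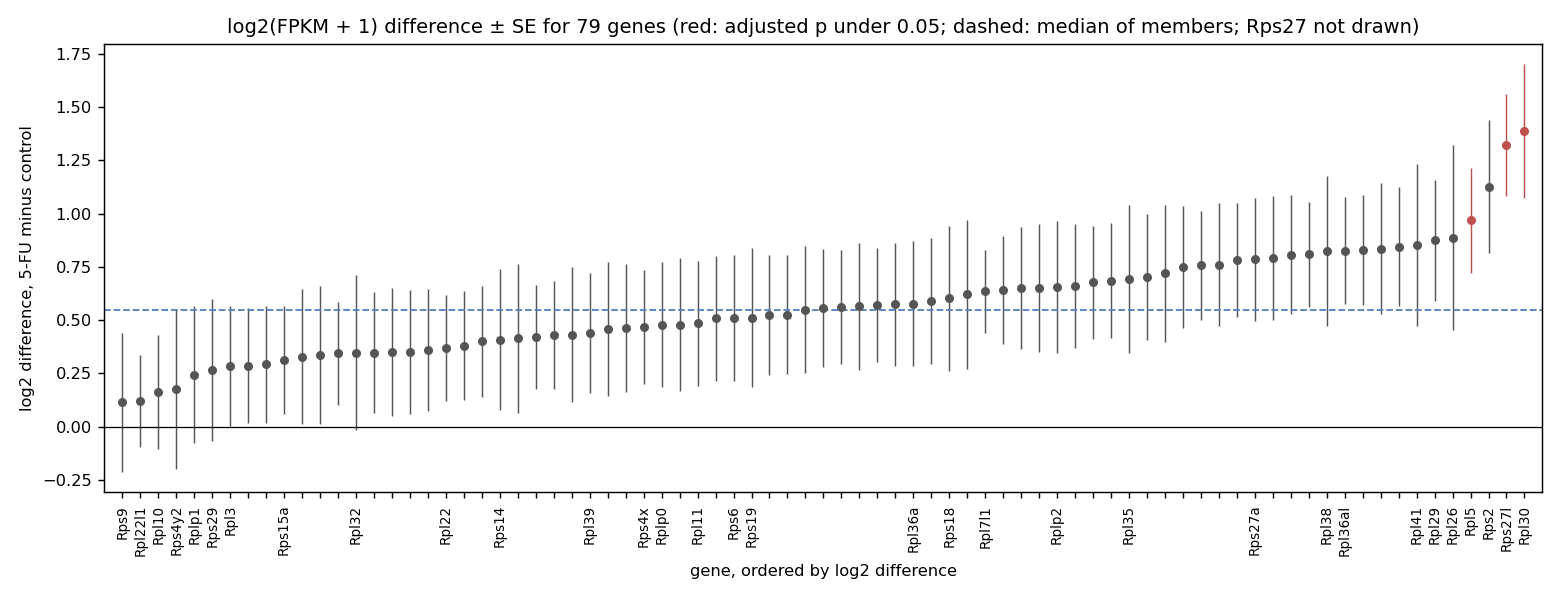
Difference in log2(FPKM + 1), 5-FU recipients minus control recipients, with its standard error (limma, 2 libraries each), for 79 of the 81 tested genes in order, with names for the genes described here. Rpl5, Rps27l and Rpl30, in red, passed an adjusted p of 0.05, and most other genes lay around the dashed median of 0.55. Rps27, at -0.26 with a standard error of 1.91, and 1 other gene are not drawn.

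The libraries of each group also differed in the same direction across the family. Members were a median of 0.55 higher, on the log2 scale, in 5-FU recipient 2 than in 5-FU recipient 1, and 80 of 81 were higher. Control recipient 1 was a median of 0.24 above control recipient 2, with 79 of 81 higher. Over all tested genes these medians were 0.03 and 0.

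The difference therefore depended on which libraries were set against each other. 5-FU recipient 1 lay a median of 0.13 above control recipient 1, with 58 members higher and 23 lower, and 0.38 above control recipient 2. 5-FU recipient 2 lay 0.73 above control recipient 1 and 0.92 above control recipient 2, where all 81 were higher. From high to low, 56 of 81 members had the order 5-FU recipient 2, 5-FU recipient 1, control recipient 1, control recipient 2, as did 13.4% of all tested genes. The SD within a group was a median of 27.2% of the mean in 5-FU recipients and 11.7% in control recipients.

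**Figure D2:**
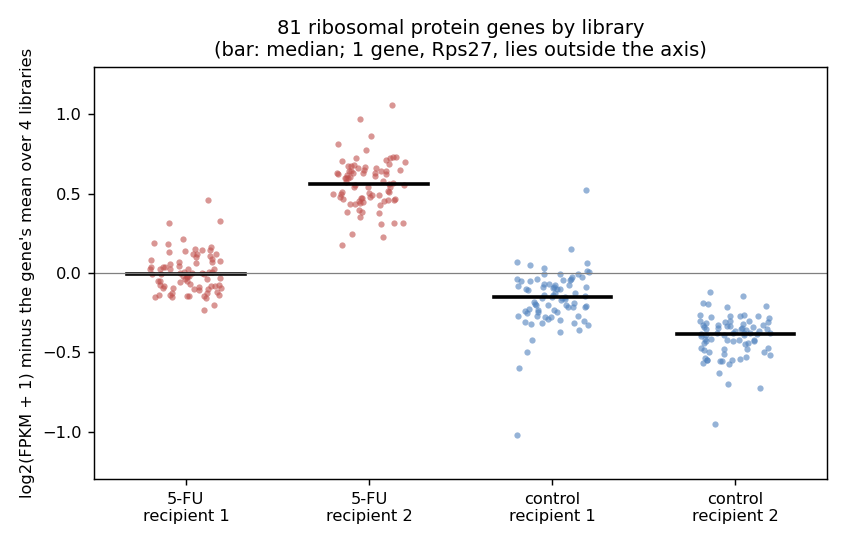
Level of each of the 81 tested genes in each library, as log2(FPKM + 1) minus that gene's mean over the 4 libraries. Points are genes and black bars medians. 5-FU recipient 2 is highest, 5-FU recipient 1 lies near the mean and the medians of both control recipients lie below it, and 5-FU recipient 1 overlaps control recipient 1 for many genes. Rps27 falls outside the axis.

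Summed levels of macrophage markers and of cell cycle genes also differed between the groups. The summed level of 19 macrophage markers was 25207 and 13881 FPKM in 5-FU recipients 1 and 2, against 28338 and 33388 FPKM in control recipients 1 and 2. The order of these sums is the reverse of that of the ribosomal protein sum. Taken singly, 10 of the 19 markers had that reverse order, and the share of all tested genes with it was not computed. Of the 19, 18 were negative, 3 fell (Csf1r, Mrc1 and Spic), and none was listed at 0 in any library. Among all tested genes 49.2% were positive and 4.67% fell. The sums of 10 cell cycle genes were 858.2 and 1130 FPKM in 5-FU recipients and 338.9 and 343.6 FPKM in control recipients. In this list 9 of the 10 rose, where 8.23% of all tested genes did.

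Sums of markers of other lineages were also lower in both 5-FU recipients, except for megakaryocyte markers, whose sums overlapped. The counts that fell stand beside 4.67% of all tested genes. They include markers such as Fcnb, Alas2, Ermap, Rhd and Igll1, which met the filter only through the control recipients, so their fall is tied to it. Summed granulocyte markers were 3625 and 3443 FPKM in 5-FU recipients against 12614 and 9813 FPKM in control recipients, and 7 of 11 fell, with Fcnb listed at 0 in at least 1 library. Erythroid markers were 485.1 and 707.2 FPKM against 2158 and 2694 FPKM, with 11 of 13 tested falling and members such as Alas2, Ermap and Rhd listed at 0 in at least 1 library. B lineage markers were 236.0 and 177.5 FPKM against 443.9 and 437.6 FPKM, with 6 of 9 tested falling and Igll1, Pax5 and Vpreb3 at 0 in at least 1 library. Handling and immediate early genes were 782.9 and 600.0 FPKM against 1656 and 1620 FPKM, with 6 of 13 falling. Megakaryocyte markers were 133.6 and 149.9 FPKM in 5-FU recipients and 178.7 and 146.9 FPKM in control recipients, and none of 7 tested passed, with Gp1bb and Ppbp at 0 in at least 1 library.

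RNA of Kit and Ly6a, whose proteins name the transplanted LSK cells, was present. Kit was at 66.2 and 69.5 FPKM in 5-FU recipients and 102.8 and 65.5 FPKM in control recipients, and Ly6a, which encodes Sca1, at 32.5 and 54.0 FPKM against 18.7 and 17.0 FPKM. Ly6a rose and Kit did not pass. The 13 stem and progenitor markers summed to 767.7 and 1016 FPKM in 5-FU recipients and to 911.3 and 830.6 FPKM in control recipients. The part of any of these cell populations in the ribosomal protein difference was not tested.

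**Figure D3:**
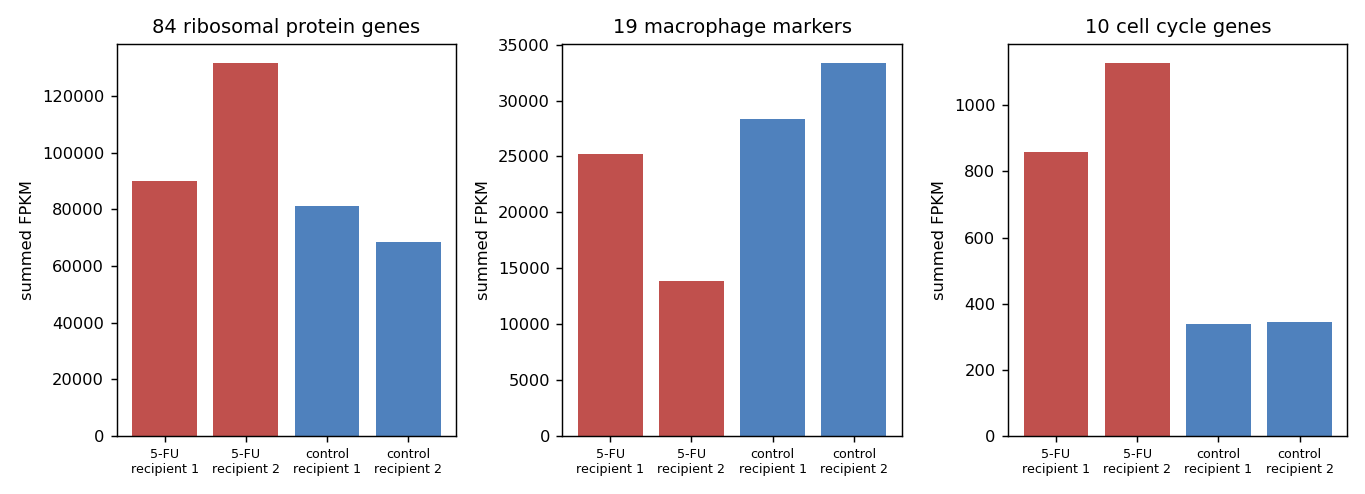
Summed FPKM of the 84 ribosomal protein genes, 19 macrophage markers and 10 cell cycle genes in each library. 5-FU recipient 2 has the highest ribosomal protein and cell cycle sums and the lowest macrophage sum, and control recipient 2 has the lowest ribosomal protein and the highest macrophage sum.

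Large subunit genes had a median log2 difference of 0.56 over 43 tested members (P stalk and paralogs apart), with 42 positive. Both 5-FU libraries lay above both controls for 30 of the 43, as for 31.4% of all tested genes. Rpl5 and Rpl30 were the 2 that rose, where 8.23% of all tested genes did. Rpl5, on chromosome 5 at 107900508 to 107909005, was at 347.4 and 521.7 FPKM in 5-FU recipients and 227.0 and 207.3 FPKM in control recipients. The groups were separate, and the log2 difference was 0.97 (SE 0.25, adjusted p = 0.044 in limma). It is the partner of Rpl11 in the particle with 5S ribosomal RNA. Rpl11 itself was at 954.3 and 1489 FPKM against 896.8 and 808.3 FPKM, a log2 difference of 0.49 (SE 0.29, adjusted p = 0.29). The difference between these 2 genes was not tested. For Rpl5, 84.1% of the 75-base windows of its annotated coding transcripts also occurred in transcripts of other genes. Transcripts of the protein-coding gene Fam69a held 40.5% of Rpl5's windows. Fam69a was at 13.3 and 23.1 FPKM in 5-FU recipients and 17.8 and 19.8 FPKM in control recipients. Reads can be split between genes that share windows, so the value of Rpl5 is uncertain. Rpl5 did not pass with the replicate number as a block (adjusted p = 0.071), with no filter (0.13), with no mean-variance trend (0.078) or without control recipient 1 (0.28) or 2 (0.37).

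The most abundant member was Rpl41, which encodes the smallest ribosomal protein, at 5321 and 7173 FPKM in 5-FU recipients and 3716 and 3145 FPKM in control recipients. Both 5-FU libraries lay above both controls, with a log2 difference of 0.85 (SE 0.38, adjusted p = 0.17). Rpl38, a large subunit protein that shapes translation of Hox messages in mouse embryos, was at 3121 and 4683 FPKM against 2355 and 1979 FPKM, a difference of 0.82 (adjusted p = 0.16). Rpl29 was at 922.1 and 1390 FPKM against 670.3 and 568.3 FPKM, a difference of 0.87 (adjusted p = 0.079). These 3 genes had separate groups without passing the test, and 31.4% of all tested genes lay above both controls in this way. Rpl35, at 2296 and 3745 FPKM against 1909 and 1718 FPKM, was likewise separate, with a difference of 0.70 (adjusted p = 0.22).

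Other abundant members of the large subunit were close between 5-FU recipient 1 and the controls. Rpl32 was at 2582 and 4018 FPKM in 5-FU recipients and 2864 and 2240 FPKM in control recipients, a log2 difference of 0.35 (SE 0.36). Rpl3, which lies near the peptidyl transferase centre, was at 1058 and 1469 FPKM against 1111 and 940.7 FPKM, a difference of 0.29. Rpl10, an X-linked gene whose protein is added late to the large subunit, was at 808.9 and 1109 FPKM against 915.9 and 780.0 FPKM, a difference of 0.16. In each of these 3 genes 5-FU recipient 1 lay below control recipient 1. Rpl22 was low for the family at 94.6 and 146.0 FPKM against 98.5 and 83.7 FPKM, a difference of 0.37.

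The 3 P stalk genes encode the flexible arm that recruits translation factors. Rplp0 was at 1192 and 1710 FPKM in 5-FU recipients against 1130 and 928.4 FPKM in control recipients, with a log2 difference of 0.48. Rplp1 was at 1934 and 2789 FPKM against 2081 and 1849 FPKM, a difference of 0.24. Rplp2 was at 1528 and 2324 FPKM against 1293 and 1104 FPKM, a difference of 0.66. Both 5-FU libraries lay above both controls for Rplp0 and Rplp2, as for 31.4% of all tested genes, and not for Rplp1. None of the 3 passed (adjusted p of 0.30, 0.65 and 0.19 in limma).

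Small subunit genes had a median log2 difference of 0.51 over 30 tested members (paralogs such as Rps27l apart), with 29 positive and none past the threshold. Both 5-FU libraries lay above both controls for 23 of the 30. Among all tested genes, 31.4% lay above both controls in this way, 8.23% rose and 4.67% fell. Rps2, whose protein lies at the messenger RNA entry site, had the largest difference of these 30 members. It was at 2449 and 3452 FPKM in 5-FU recipients and 1395 and 1269 FPKM in control recipients, with separate groups and a difference of 1.13 (SE 0.31, adjusted p = 0.054). It passed under 4 alternatives that kept all libraries: a filter of 5 FPKM, quantile scaling, TPM scaling and robust eBayes, at adjusted p of 0.041, 0.022, 0.044 and 0.039. Its adjusted p was 0.22 with the replicate block, 0.18 with no filter, 0.47 without control recipient 1 and 0.56 without control recipient 2. Without 5-FU recipient 1 or 2 it was 6.4e-04 and 0.015. Its coding transcripts shared 49.4% of their 75-base windows with 50 other annotated genes, all pseudogenes.

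The remaining small subunit genes named here did not pass. Rps6, the substrate of S6 kinase, was at 758.1 and 1225 FPKM in 5-FU recipients against 726.3 and 629.9 FPKM in control recipients, a log2 difference of 0.51. Rps19, the gene most often mutated in Diamond-Blackfan anemia, was at 2180 and 3076 FPKM against 2026 and 1627 FPKM, a difference of 0.51. For both, the 5-FU libraries lay above the controls, as for 31.4% of all tested genes. Rps14, whose loss underlies the anemia of the 5q- syndrome in people, was at 1711 and 2619 FPKM against 1802 and 1412 FPKM, a difference of 0.41 with overlapping groups. Rps27a, made as a fusion with ubiquitin, was at 941.2 and 1414 FPKM against 744.6 and 600.6 FPKM, a difference of 0.79 (adjusted p = 0.11). Rps18 was at 2571 and 3772 FPKM against 2257 and 1865 FPKM, a difference of 0.60, and Rps29 at 2938 and 3787 FPKM against 2937 and 2622 FPKM, a difference of 0.27. Rps9 was at 1911 and 2732 FPKM against 2308 and 1931 FPKM, a difference of 0.11 (SE 0.33), and 5-FU recipient 1 was the lowest of the 4 libraries.

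Of the 18 members mutated in Diamond-Blackfan anemia in people, 1 rose (Rpl5), none fell and 17 did not pass. Their median log2 difference was 0.65, and 15 lay above both controls in both 5-FU libraries. Among all tested genes, 8.23% rose, 4.67% fell and 31.4% lay above both controls in this way. The 4 X-linked members had a median of 0.45 and none passed. Rps4x was at 771.1 and 1066 FPKM in 5-FU recipients against 725.1 and 591.7 FPKM in control recipients, Rpl36a at 743.0 and 1185 FPKM against 690.0 and 572.9 FPKM, and Rpl39 at 1144 and 1560 FPKM against 1079 and 898.1 FPKM. These 3 had separate groups.

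Among the 8 paralogs and like genes, 5 were tested and Rps27l alone rose. Rps27l encodes a near relative of Rps27 and is known as a p53 target in human cells. The gene, on chromosome 9 at 66944624 to 66949522, was at 734.4 and 973.9 FPKM in 5-FU recipients and 353.0 and 323.0 FPKM in control recipients. The groups were well separated, and the log2 difference was 1.32 (SE 0.24, adjusted p = 0.018), or 2.50 times on the FPKM + 1 scale. Only 8.07% of its 75-base windows occurred in other annotated genes. With all 4 libraries kept it passed under every other filter, pseudocount, scaling and variance setting tried and with the replicate block, but not with no filter (adjusted p = 0.085), and did not pass without control recipient 1 or 2 (adjusted p of 0.20 and 0.27). In the list of 8 genes of the MDM2-p53 checkpoint, Cdkn1a (p21) rose by 3.84 and Phlda3 by 3.13, while Sesn1 fell by 1.11 and Btg2 fell by 1.40. The other 4, Mdm2 (0.31), Mdm4 (-0.44), Trp53 (0.71) and Bbc3 (0.24), did not pass. Among all tested genes, 8.23% rose and 4.67% fell.

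The other paralogs did not pass. Rpl36al, a like gene of Rpl36a, was at 526.9 and 759.4 FPKM in 5-FU recipients and 381.8 and 332.4 FPKM in control recipients, a log2 difference of 0.83 (adjusted p = 0.068). Rpl7l1, a nucleolar relative of Rpl7, was at 85.7 and 103.9 FPKM against 58.1 and 62.7 FPKM, a difference of 0.64 (adjusted p = 0.069). Rpl22l1, the paralog of Rpl22, was at 256.5 and 332.3 FPKM against 279.3 and 258.0 FPKM, a difference of 0.12. Rps4y2, which RefSeq lists as the transcribed pseudogene Rps4l, was at 23.7 and 26.9 FPKM against 34.5 and 14.2 FPKM. The testis-enriched Rpl10l and Rpl39l and the muscle-enriched Rpl3l stayed under 1 FPKM. Rpl10l and Rpl39l were listed at 0 in 3 of the 4 libraries each, and Rpl3l in 2.

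Levels of paralogs were also set against those of their partners. Rps27l stood at 0.26 and 0.24 of the sum of Rps27 and its copy row Gm9846 in 5-FU recipients 1 and 2, and at 0.091 and 0.097 in control recipients 1 and 2. Rpl36al stood at 0.71 and 0.64 of Rpl36a in 5-FU recipients against 0.55 and 0.58 in control recipients. Rpl22l1 stood at 2.71 and 2.28 times Rpl22 in 5-FU recipients against 2.84 and 3.08 in control recipients. Rpl7l1 stood at 0.0653 and 0.0603 of Rpl7 in 5-FU recipients against 0.0510 and 0.0655 in control recipients. The first 3 ratios had separate groups, higher in 5-FU recipients for Rps27l and Rpl36al and lower for Rpl22l1, and the groups overlapped for Rpl7l1. No test was made of these ratios.

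Of the 84 members, 74 were above 100 FPKM in every library. Of the rest, Rpl30, Rpl26 and Rps27 are core subunits that share sequence with another row of much higher level. How the authors' counting divided reads between these rows was not tested. Rpl30, on chromosome 15 at 34440505 to 34443276, was at 49.6 and 82.8 FPKM in 5-FU recipients and 18.8 and 30.3 FPKM in control recipients, a log2 difference of 1.39 (SE 0.31, adjusted p = 0.031). The row Gm12191, a transcribed pseudogene on chromosome 11, holds 18.4% of Rpl30's distinct 75-base windows and was at 953.8 and 1465 FPKM against 961.4 and 835.4 FPKM. Rpl30 was thus 4.94% and 5.35% of the sum of both rows in 5-FU recipients, and 1.92% and 3.50% in control recipients. For the sum the difference was 0.44 (SE 0.29, adjusted p = 0.35), which did not pass. The row of Rpl30 alone did not pass with no filter (adjusted p = 0.13), with no mean-variance trend (0.061) or without control recipient 1 (0.20) or 2 (0.061).

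The other two also lay far below their copy rows. Rpl26 was at 14.3 and 30.6 FPKM in 5-FU recipients and 15.9 and 7.34 FPKM in control recipients, beside 1039 and 1481 FPKM against 988.7 and 853.7 FPKM in Gm15772, a transcribed pseudogene on chromosome 5. The difference was 0.89 (SE 0.43, adjusted p = 0.21) for Rpl26 and 0.44 (SE 0.28, adjusted p = 0.33) for the sum. Rps27 was at 233.1 and 10.2 FPKM in 5-FU recipients and 489.0 and 6.64 FPKM in control recipients, high in the library numbered 1 of each group. Gm9846, named Rps27rt by RefSeq and protein coding, was at 2616 and 4071 FPKM against 3378 and 3338 FPKM. Their sum was 2849 and 4081 FPKM in 5-FU recipients against 3867 and 3345 FPKM in control recipients, with overlapping groups and a difference of -0.08 (SE 0.36, adjusted p = 0.91). Rps15a was also low, at 39.6 and 60.9 FPKM against 43.8 and 35.3 FPKM, and was singled out after its values were seen.

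**Figure D4:**
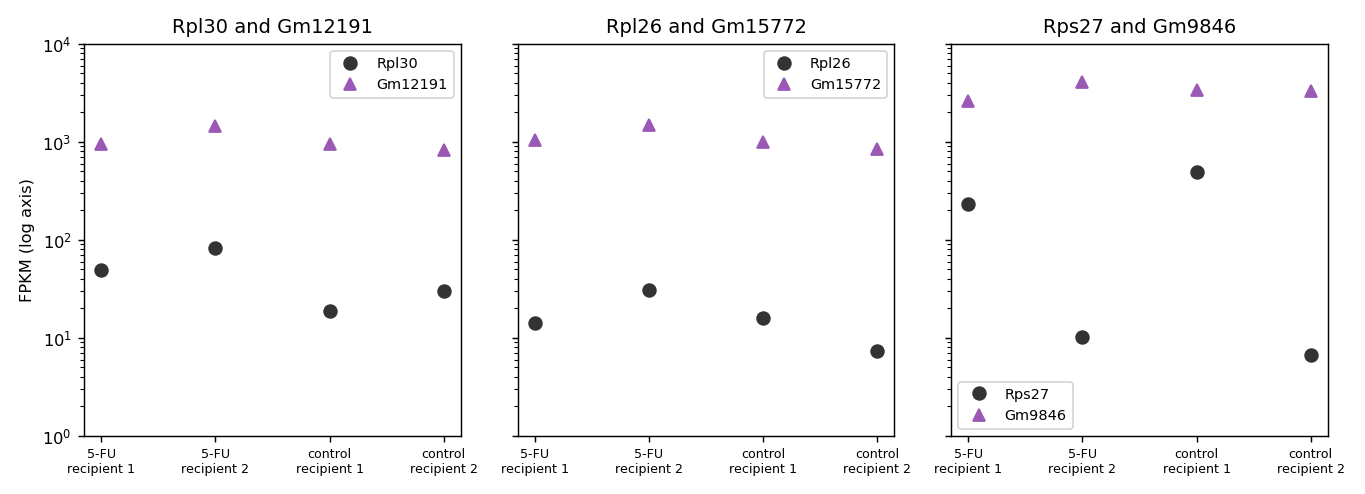
FPKM (log axis) of Rpl30, Rpl26 and Rps27, as circles, and of the rows that share their sequence, as triangles, in each of the 4 libraries. The copy rows lie between 835 and 4071 FPKM and the members far below them, and Rps27 differs widely between libraries of the same group.

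Sequence shared with other genes was common in the family. A median of 30.9% of a member's 75-base windows, the read length, occurred in annotated GENCODE M21 transcripts of other genes, and 17 members shared under 10%. Over the 81 tested members, log2 differences had a Spearman rho of 0.09 with the shared percentage and -0.06 with the mean level (descriptions across genes that share libraries and families of copies).

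As a share of the summed ribosomal protein FPKM of its own library, some members took a different part of the family total in each group. Rps2 was 2.73% and 2.62% of the sum in 5-FU recipients against 1.72% and 1.86% in control recipients. Rps27l was 0.817% and 0.739% against 0.435% and 0.473%, and Rpl41 5.92% and 5.44% against 4.58% and 4.61%. These 3 took a larger share in both 5-FU recipients. Rps9 was 2.13% and 2.07% of the sum in 5-FU recipients against 2.85% and 2.83% in control recipients. Rplp1 was 2.15% and 2.12% against 2.57% and 2.71%, and Rpl10 0.9003% and 0.841% against 1.13% and 1.14%. These 3 took a smaller share in both. In all, 30 of 84 members had a larger share in both 5-FU libraries than in both controls, and 32 a smaller share. For all 11496 tested genes, set against the same sums, 12.1% were above and 52.5% below in this way. The sums were themselves higher in both 5-FU recipients, which lowers these values for other genes. The 2 percentages are therefore no yardstick for the counts of members. Shares in 1 sum are not independent, and no test was made.

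**Figure D5:**
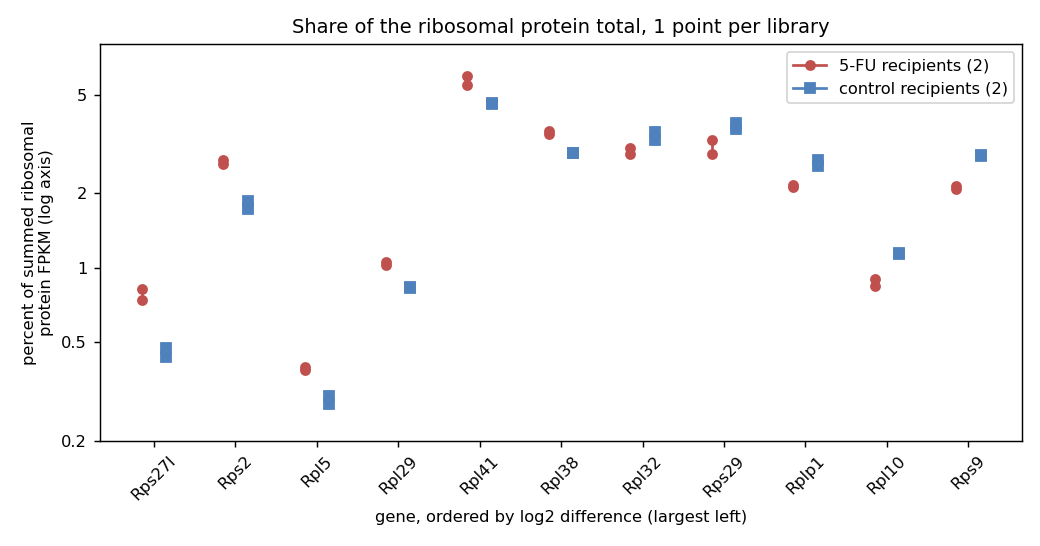
FPKM of 11 genes as a percent of the summed FPKM of the 84 ribosomal protein genes in the same library (log axis), with 1 point per library, 5-FU recipients as circles and control recipients as squares. Rps27l, Rps2, Rpl5, Rpl29, Rpl41 and Rpl38 take a larger share in both 5-FU recipients, and Rpl32, Rps29, Rplp1, Rpl10 and Rps9 a smaller one.

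Core ribosome genes with other symbols were set beside the family, and the 3 given here did not pass. Rpsa, a small subunit protein also known as the laminin receptor, was at 914.0 and 1246 FPKM in 5-FU recipients against 751.7 and 605.1 FPKM in control recipients (log2 difference 0.66). Gnb2l1 (Rack1), a scaffold on the small subunit, was at 628.5 and 911.5 FPKM against 492.9 and 413.9 FPKM (0.74). Fau, the fusion precursor of Rps30, was at 849.7 and 1154 FPKM against 999.1 and 871.6 FPKM (0.09, adjusted p = 0.86). Of the 6 pseudogene symbols left out of the family, 2 rose and 4 did not pass, where 8.23% of all tested genes rose. Rplp2-ps1 rose, at 11.5 and 8.19 FPKM in 5-FU recipients against 2.38 and 2.87 FPKM in control recipients. Rpl31-ps12 also rose, at 1.55 and 1.44 FPKM in 5-FU recipients and listed at 0 in both control recipients. It met the filter of 1 FPKM only through the 5-FU recipients, so its rise is tied to that filter. The more abundant Rpl34-ps1, at 428.8 and 413.1 FPKM against 303.5 and 142.1 FPKM, did not pass, and Rps19-ps3 had a log2 difference of -0.05.

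Genes of the mitochondrial ribosome and of ribosome assembly had several members past the threshold. Of 76 mitochondrial ribosomal protein genes, 26 rose, none fell and 50 did not pass, with a median log2 difference of 0.69. Both 5-FU libraries lay above both controls for 67 of the 76. Among all tested genes, 8.23% rose, 4.67% fell and 31.4% lay above both controls in this way. The mitochondrial ribosomal protein genes made up 0.851% and 1.03% of all FPKM in 5-FU recipients, against 0.618% and 0.616% in control recipients. Of 18 chaperones of ribosomal proteins and late assembly factors, 10 rose, none fell and 8 did not pass, with a median of 0.80. Grwd1, a chaperone of Rpl3, was at 45.6 and 65.9 FPKM in 5-FU recipients against 18.7 and 13.2 FPKM in control recipients, a log2 difference of 1.74 (SE 0.27, adjusted p = 0.013). Mrto4, which holds the place of Rplp0 during assembly, rose by 1.72, and Rrs1, needed to load the Rpl5 and Rpl11 particle, by 1.23. Ltv1, which escorts Rps3 in yeast, rose by 1.03 and Bccip by 0.92. Bysl, Riok2, Pno1 and Nob1, which act late on the small subunit, rose by 1.25, 1.16, 1.14 and 0.83, and Eif6, which keeps the large subunit from joining early, by 0.78.

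Of 18 elongation factors and other genes with pyrimidine-tract messages, 6 rose, none fell and 12 did not pass, with a median of 0.62. Among all tested genes, 8.23% rose and 4.67% fell. Npm1, a nucleolar chaperone, was at 1549 and 2246 FPKM in 5-FU recipients against 575.1 and 472.3 FPKM in control recipients, a log2 difference of 1.84 (SE 0.28, adjusted p = 0.014). Hnrnpa1 rose by 1.49, Nap1l1 by 1.36, Eef1d by 1.03, Eef1g by 1.00 and Eif3l by 0.88. Of 13 genes of mTOR complex 1, S6 kinase and LARP1 control, Larp1 rose, Pdcd4 fell and 11 did not pass, with a median of -0.13. Larp1 was at 30.9 and 27.8 FPKM in 5-FU recipients and 14.0 and 15.8 FPKM in control recipients (0.93, adjusted p = 0.032). Pdcd4, an inhibitor of translation initiation that S6 kinase marks for decay, was at 13.2 and 12.8 FPKM against 29.1 and 27.7 FPKM (-1.07, adjusted p = 0.022). Of 9 genes of ribosome recycling and rescue, Abce1, which splits ribosomes, rose by 0.89 and Usp10, which removes ubiquitin from stalled ribosomes, by 1.203, and 7 did not pass. The difference between these lists and the ribosomal protein genes was not tested.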

How the data were processed

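The 4 libraries were read as 75 bp single-end reads from cDNA of a low-input SMART-Seq kit, per the labels' protocols. Per the submitters' processing notes, TopHat2 2.0.13, Bowtie2 2.2.3, SAMtools 0.1.19 and Cuffnorm 2.2.1 were used with mm10, and the deposited values are FPKM. Not given in the sources used here are the annotation, the handling of reads with several matches and Cuffnorm's library normalization. Depth is unknown, and no interval that needs it is given. FPKM sums were 678270 and 762107 in 5-FU recipients and 680412 and 678222 in control recipients. Column headers of the 5-FU libraries give another day number than their file names, and groups are those of the labels.

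Tests used log2(FPKM + 1) of the deposited values and the 11496 genes that reached 1 FPKM in no fewer than 2 libraries. The two-sided test was limma-trend (limma 3.58.1, R 4.3.3), and adjustment by Benjamini-Hochberg covered all those genes, at a threshold of 0.05. The model had 2 residual degrees of freedom and a prior of 5.62. The model was tested on simulated data. The labels call replicates biological and sort each recipient apart, so the spread within a group is that between recipients, with their sorting and library preparation. The p-values rest on that spread, moderated by the prior drawn from all tested genes. Replicate numbers name no shared source, and the main model has no block. Coordinates are GRCm38.p6, which mm10 corresponds to. All members matched RefSeq by symbol or synonym. Figures were drawn with matplotlib 3.10.9.

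Genes named singly were members past the threshold, the 6 largest and 6 smallest differences, the 6 of highest mean level, the stalk, 5S, X-linked and paralog members, Rps2, Rps6, Rps14, Rps19, Rpl3, Rpl22, Rps27 and Rps27a, members of the pathway lists past the threshold, and the ribosomal protein genes with other symbols. Kit and Ly6a were added because c-Kit and Sca1 name the donor LSK cells, and they do not check the EGFP sort. A few genes that this rule names are not reported here. The genes and lists were chosen with earlier results of these data known. The copy rows, ratios and shares of the family total were chosen after values were seen. The alternatives changed the pseudocount (0.1, 5), the filter (none, 5 FPKM), the scaling (TPM, quantile, median-ratio) or the model (no trend, robust eBayes, a replicate block), or left out each library in turn, and, added later, sums with the copy rows and a crossed block.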

Additional observations from a re-analysis of the deposited data

How the results depend on the processing

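The family median log2 difference was 0.39 with quantile scaling and 0.47 with TPM scaling, and stayed within 0.26 to 0.83 when 1 library was left out (0.26 without 5-FU recipient 2, 0.83 without 5-FU recipient 1). The median of all tested genes was 0.027 with a filter of 5 FPKM and -0.090 with TPM scaling, and from -0.02 to 0.01 when 1 library was left out. Members that rose numbered 0 with no filter, 6 with quantile scaling (where 823 of all genes rose), 1 with no mean-variance trend, and 0 to 71 when 1 library was left out, and no member fell in any of these fits. With no filter 3 genes rose and 4 fell of all genes, and with no trend 548 and 299. When 1 library was left out 88 to 2122 rose and 38 to 1876 fell. The cause was not tested. Direction turned for Rpl10 (-0.060) and Rpl22l1 (-0.028) with quantile scaling. When 1 library was left out, direction turned in at least 1 fit for Rpl10 (range -0.063 to 0.39), Rpl22l1 (-0.066 to 0.31), Rplp1 (-0.020 to 0.51), Rps27 (-3.26 to 2.75), Rps4y2 (-0.43 to 0.79) and Rps9 (-0.14 to 0.37). None of these 6 genes passed with quantile scaling or with 1 library left out.

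Deviations of same-numbered libraries from their group means had a correlation of -0.16 across tested genes. With the replicate block, 855 genes rose and 539 fell, and among members Rpl30 and Rps27l passed. With the numbers crossed, 1686 genes rose and 1365 fell, and 26 members rose. Depth is unknown, and 2 libraries a group limit the precision.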
